A study of Mus musculus with 10 samples.

Results

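The genes described here are 9 transcripts of sugar digestion, sugar uptake and fructose handling in the intestinal epithelium: Sis, Lct, Treh, Mgam, Slc5a1, Slc2a2, Slc2a5, Khk and Fbp1. They were taken by gene symbol from 19505 genes measured on 10 single-colour arrays, and all 9 were present, each with 1 probe set. The arrays held RNA from small intestine organoids of BALB/c mice, which are three-dimensional cultures of intestinal epithelium grown in basement membrane gel. All cultures received 20 ng/ml recombinant murine TNF, an inflammatory cytokine, for 48 h. Together with the TNF, 5 cultures received 5 mg/ml pegtarazimod, a PEG-linked peptide, and the other 5 received 2.625 mM PEG as vehicle. The 2 amounts are in different units, and the labels do not say if the arms were matched for PEG. The series describes the 5 samples of a group as biological replicates, and the sources used here do not say what differed between them. Cultures without TNF were not analysed here, so TNF was present on both sides of each comparison.

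Dietary starch and disaccharides are split at the brush border of the enterocyte, the absorptive cell of the villus, by membrane-bound hydrolases. The freed glucose and galactose enter the cell with sodium through SGLT1 (Slc5a1), fructose enters through GLUT5 (Slc2a5), and GLUT2 (Slc2a2) carries hexoses across the basolateral membrane. Inside the enterocyte ketohexokinase (Khk) starts fructose breakdown, and part of the carbon is turned into glucose through fructose bisphosphatase (Fbp1). These genes are known to be switched on as cells leave the crypt and mature along the villus.

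In both groups replicates 1 and 2 stood apart from replicates 3 to 5. With the group means removed, the principal component with the largest share of the variance over all genes (33.4%) placed these 4 arrays between -27.6 and -12.0 and the other 6 between 8.20 and 21.2. The labels name no batch. Values are therefore given over all 10 arrays, and then within replicates 1 and 2 and within replicates 3 to 5. The deposited values are log2 expression, so 1 unit is a doubling. Array medians lay between 5.60 and 5.66, and the lower quartiles, near which a value is hard to tell from background, lay between 3.84 and 3.90. The number of arrays limits the precision.

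With pegtarazimod the means of all 9 sugar genes were higher, by 0.06 to 0.85 on the log2 scale. A higher mean was seen for 50.7% of all genes. However, none of the 9 passed the test over the 10 arrays (limma with Benjamini-Hochberg adjustment over all genes, threshold 0.05). Over all genes 2.5% passed upwards, 2.39% downwards and 4.89% in either direction. The median difference was 0.53 for the 9 genes and 0.00285 for all genes. Unadjusted limma p-values were below 0.05 for 6 of the 9, as for 19% of all genes, and exact two-sided permutation p-values for 2 of the 9 (Khk and Lct), as for 17.4% of all genes. The groups overlapped for each of the 9, whereas they did not overlap, with pegtarazimod higher, for 3.35% of all genes. The pegtarazimod arrays of replicates 1 and 2 lay above every vehicle array for 8 of the 9 genes, Mgam excepted, and for 13.6% of all genes.

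**Figure D1:**
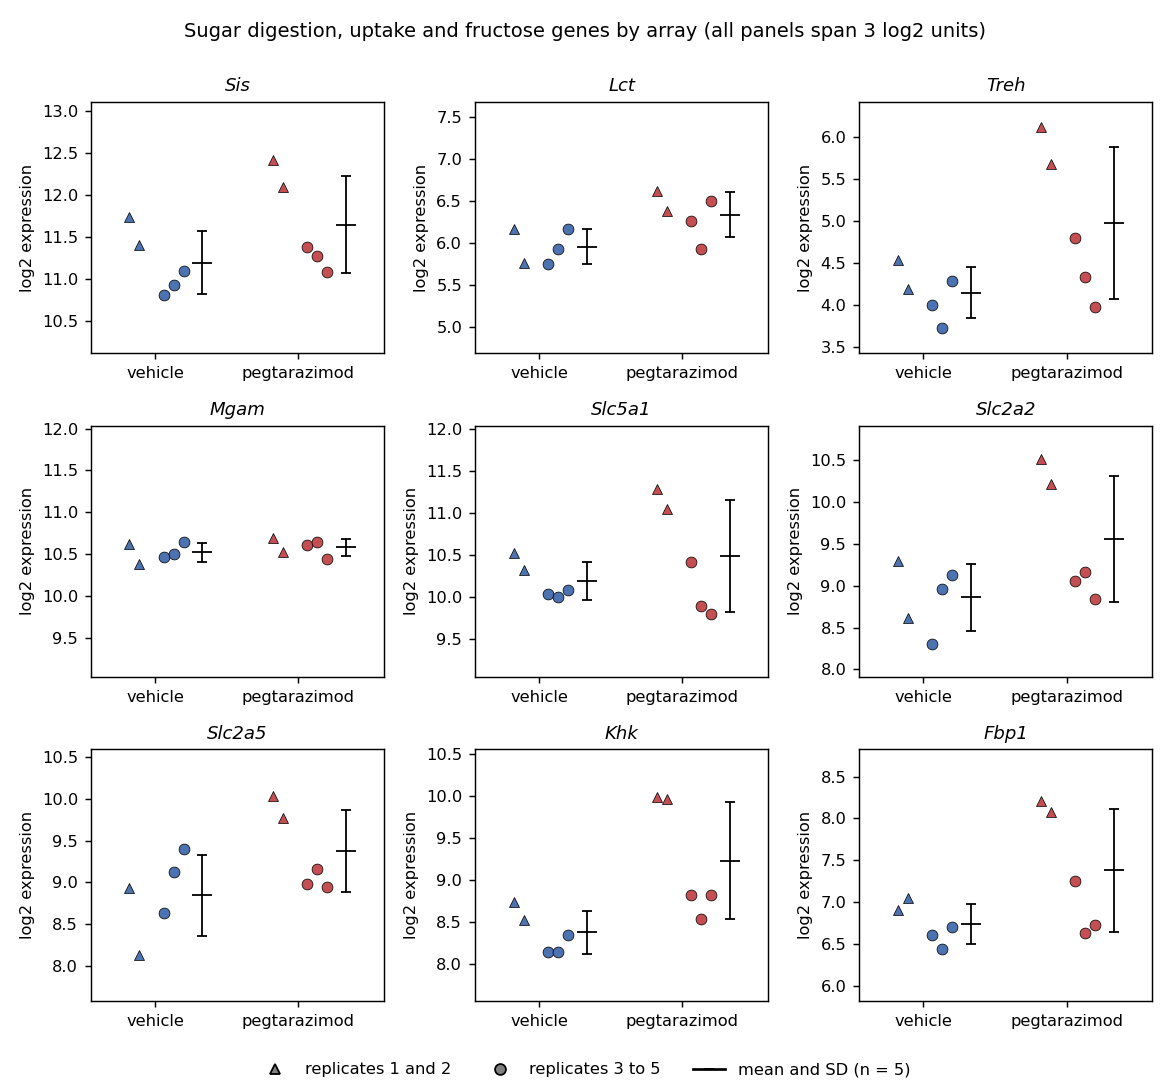
Log2 expression (vertical axis, 3 log2 units in every panel) of each of the 9 genes on the 5 vehicle and the 5 pegtarazimod arrays; triangles are replicates 1 and 2, circles replicates 3 to 5, and bars the mean and SD (n = 5). The red triangles are the 2 highest arrays in 7 of the 9 panels, all but Lct and Mgam (7.85% of all genes have this order), and in every panel the groups overlap.

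Among the hydrolases, Sis encodes sucrase-isomaltase, which splits sucrose and the branch points of starch fragments. Its values were 11.74, 11.40, 10.81, 10.93 and 11.10 in vehicle replicates 1 to 5, and 12.42, 12.10, 11.39, 11.27 and 11.08 in pegtarazimod replicates 1 to 5. Pegtarazimod 1 and 2 were the highest arrays, and pegtarazimod 3 to 5 lay among the vehicle arrays. The mean was 11.20 ± 0.37 (SD, n = 5) with vehicle and 11.65 ± 0.58 with pegtarazimod, a ratio of 1.37-fold with a 95% confidence interval of 0.955 to 1.97 (limma adjusted p = 0.346).

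Lct encodes lactase, the milk-sugar hydrolase that is high before weaning. It measured 6.17, 5.77, 5.75, 5.92 and 6.17 with vehicle and 6.62, 6.38, 6.26, 5.93 and 6.50 with pegtarazimod. Apart from pegtarazimod 4, each pegtarazimod array lay above the highest vehicle array. The ratio was 1.30-fold (interval 1.07 to 1.59; limma adjusted p = 0.128; exact permutation p = 0.0397). Leaving out each array in turn gave differences of 0.31 to 0.48 and limma adjusted p-values of 0.0325 to 0.284, and the test was passed without pegtarazimod 4 alone.

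Treh encodes trehalase, which splits the sugar of fungi and insects and appears at weaning. It measured 4.54, 4.19, 4.004, 3.72 and 4.28 with vehicle and 6.12, 5.67, 4.80, 4.33 and 3.97 with pegtarazimod. The vehicle values were close to the lower quartile of the arrays, 1 of them below it, so the fold may be understated. Pegtarazimod 1, 2 and 3 lay above all vehicle arrays, and pegtarazimod 5 lay in the lower part of the vehicle range. The ratio was 1.78-fold (interval 1.09 to 2.91; limma adjusted p = 0.182).

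Mgam encodes maltase-glucoamylase, a relative of sucrase-isomaltase that splits maltose and starch chains. It was the least variable of the 9, at 10.62, 10.38, 10.47, 10.50 and 10.65 with vehicle and 10.69, 10.53, 10.61, 10.65 and 10.44 with pegtarazimod. All 10 arrays fell within a narrow band, and the ratio was 1.04-fold (interval 0.913 to 1.19; limma adjusted p = 0.792). The interval leaves out a doubling in either direction. After quantile normalisation over the named genes the difference had the opposite sign, at -0.0182.

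The 250 bases before the RefSeq starts (build GRCm38.p6) were searched on both strands for short words that known regulators of these genes bind. The words were TTTAT for the homeodomain factor CDX, GATAA for GATA factors, GTTAAT for an HNF1 half-site, CAAAGTC for HNF4 and CACGTG for the E-box of the carbohydrate-response factors. Occurrences of different words can overlap, and capitals mark every match. The promoters of Sis, Lct and Mgam are shown because they were the only 3 of the 9 with TTTAT, although their transcripts differed in how far they varied across the arrays. They lie at chr3:72967864-72968113 (minus strand), chr1:128328319-128328568 (minus strand) and chr6:40628581-40628830 (plus strand), and read 5′ to 3′ towards the start.
Sis: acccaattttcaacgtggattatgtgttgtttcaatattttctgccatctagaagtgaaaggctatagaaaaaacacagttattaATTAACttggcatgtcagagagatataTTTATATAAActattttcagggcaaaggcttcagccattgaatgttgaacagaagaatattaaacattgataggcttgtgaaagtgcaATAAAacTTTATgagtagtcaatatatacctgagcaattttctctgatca
Lct: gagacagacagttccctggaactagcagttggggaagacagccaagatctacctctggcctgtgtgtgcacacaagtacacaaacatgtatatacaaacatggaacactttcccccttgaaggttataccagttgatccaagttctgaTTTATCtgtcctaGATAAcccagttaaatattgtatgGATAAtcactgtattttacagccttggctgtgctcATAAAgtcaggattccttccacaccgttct
Mgam: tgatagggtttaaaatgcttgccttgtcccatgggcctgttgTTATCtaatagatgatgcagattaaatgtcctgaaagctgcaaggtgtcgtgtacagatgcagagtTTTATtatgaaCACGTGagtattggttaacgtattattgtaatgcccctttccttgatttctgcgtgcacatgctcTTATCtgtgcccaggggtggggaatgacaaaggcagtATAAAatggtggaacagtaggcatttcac
In Sis, TTTAT or its reverse complement began at -138, -133, -50 and -43 relative to the start, and a GTTAAT match at -165. In Lct such matches began at -102 and -30, with GATAA matches at -101, -89 and -65. In Mgam they began at -142 and -29, with GATAA matches at -208 and -66 and CACGTG at -131. TTTAT was present in 37.3% of 32851 RefSeq promoter windows of this length, and GATAA, found in 4 of the 9, in 22.6%.

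Of the carriers, Slc5a1 (SGLT1) measured 10.52, 10.32, 10.04, 9.998 and 10.07 with vehicle and 11.28, 11.04, 10.41, 9.89 and 9.80 with pegtarazimod. Pegtarazimod 1 and 2 were the highest arrays and pegtarazimod 4 and 5 the lowest of all 10. The ratio was 1.23-fold (interval 0.847 to 1.77; limma adjusted p = 0.600).

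Slc2a2 (GLUT2) measured 9.30, 8.62, 8.30, 8.96 and 9.12 with vehicle and 10.51, 10.21, 9.06, 9.16 and 8.84 with pegtarazimod. Replicates 3 to 5 of pegtarazimod lay inside the vehicle range and replicates 1 and 2 well above it. The ratio was 1.62-fold (interval 1.04 to 2.52; limma adjusted p = 0.221).

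Slc2a5 (GLUT5), the fructose carrier, measured 8.93, 8.14, 8.64, 9.12 and 9.40 with vehicle and 10.03, 9.77, 8.98, 9.16 and 8.94 with pegtarazimod. With vehicle, replicates 1 and 2 had the lower mean, 8.54 against 9.05 in replicates 3 to 5, an order shared among the 9 by Mgam alone (10.50 against 10.54), while the pegtarazimod arrays had the reverse order, 9.90 against 9.03. The ratio over the 10 arrays was 1.44-fold (interval 1.003 to 2.07; limma adjusted p = 0.260).

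Khk, which traps fructose in the cell as its phosphate, had the largest difference of the 9 and the smallest p. It measured 8.73, 8.52, 8.14, 8.14 and 8.34 with vehicle and 9.99, 9.97, 8.82, 8.54 and 8.82 with pegtarazimod. Apart from pegtarazimod 4, every pegtarazimod array lay above every vehicle array. The mean was 8.37 ± 0.26 (SD, n = 5) with vehicle and 9.23 ± 0.70 with pegtarazimod, a ratio of 1.80-fold (interval 1.22 to 2.66; limma adjusted p = 0.0819; exact permutation p = 0.0159). With each array left out in turn the difference was 0.66 to 1.02 and the limma adjusted p 0.0295 to 0.188, past the threshold without pegtarazimod 4 alone.

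Fbp1, which acts in the making of glucose from fructose and other precursors, measured 6.90, 7.05, 6.61, 6.44 and 6.71 with vehicle and 8.21, 8.08, 7.26, 6.63 and 6.73 with pegtarazimod. Pegtarazimod 1, 2 and 3 lay above all vehicle arrays, and pegtarazimod 4 and 5 inside the vehicle range. The ratio was 1.56-fold (interval 1.04 to 2.33; limma adjusted p = 0.219).

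The promoters of Khk and Slc5a1 are shown because both hold the E-box word CACGTG, the core of the element read by carbohydrate-response factors, and because Khk and Slc5a1 form the pair with the largest difference in response among those tested below that had no overlap. Together with Mgam they were the 3 of the 9 with this word, which was present in 6.02% of the promoter windows. Khk lies at chr5:30921309-30921558 and Slc5a1 at chr5:33103969-33104218, both on the plus strand.
Khk: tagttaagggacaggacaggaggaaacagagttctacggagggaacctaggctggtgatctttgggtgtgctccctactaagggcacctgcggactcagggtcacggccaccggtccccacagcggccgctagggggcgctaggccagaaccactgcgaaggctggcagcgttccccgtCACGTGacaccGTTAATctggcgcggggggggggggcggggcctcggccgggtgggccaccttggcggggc
Slc5a1: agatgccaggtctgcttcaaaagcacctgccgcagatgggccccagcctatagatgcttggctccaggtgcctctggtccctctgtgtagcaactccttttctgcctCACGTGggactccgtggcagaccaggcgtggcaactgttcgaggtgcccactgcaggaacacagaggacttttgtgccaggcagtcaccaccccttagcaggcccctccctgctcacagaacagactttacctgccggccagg
The word began at -71 in Khk, with a GTTAAT match at -60, and at -143 in Slc5a1. GTTAAT was found in 2 of the 9 (Sis and Khk) and in 6.43% of all windows, and CAAAGTC in Treh alone and in 3.84%. A match is a run of letters and not a measured binding site.

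Within replicates 1 and 2 the differences were larger for all 9 genes than within replicates 3 to 5, an order that 48.6% of all genes had. Both subsets were recognised from these same arrays, and they were fitted as 4 groups with a spread pooled over the 10 arrays. Replicates 1 and 2 hold 2 arrays in each group. The p-values within a subset describe these arrays and are no independent test. In replicates 1 and 2, 7 of the 9 rose (all but Lct and Mgam), where 2.93% of all genes did. Treh was 2.90-fold higher there, Slc2a2 2.65-fold, Slc2a5 2.57-fold, Khk 2.55-fold and Fbp1 2.24-fold higher, with limma adjusted p between 2.27e-04 for Khk and 0.00665 for Slc2a5. Slc5a1 was 1.67-fold and Sis 1.61-fold higher (limma adjusted p = 0.0322 and 0.0297). Lct was at 1.45-fold and Mgam at 1.08-fold, and neither passed (limma adjusted p = 0.176 and 0.792).

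In replicates 3 to 5 Khk alone of the 9 rose, at 1.43-fold (limma adjusted p = 0.0345), where 1.84% of all genes did. Slc5a1 and Slc2a5 differed by -0.00397 and -0.03, with intervals of -0.33 to 0.33 and -0.48 to 0.42. In replicates 1 and 2 they differed by 0.74 and 1.36. For every gene but Lct and Mgam the difference in replicates 1 and 2 lay above the interval of replicates 3 to 5. That reading leaves out the error of the difference in replicates 1 and 2, and the test of the subsets against each other is given below. Sis, Lct, Treh, Slc2a2 and Fbp1 were at 1.23-fold, 1.22-fold, 1.29-fold, 1.17-fold and 1.22-fold. Only Khk therefore passed in both subsets.

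The difference between the subsets was itself tested as an interaction. None of the 9 passed (lowest limma adjusted p = 0.248, for Khk), and 5 of all 19505 genes did (0.0256%). Unadjusted interaction p-values were below 0.01 for 6 of the 9 (Treh, Slc5a1, Slc2a2, Slc2a5, Khk and Fbp1), where 2.25% of all genes had such values. Slc2a5 had the largest interaction, 1.39 on the log2 scale (interval 0.67 to 2.10), and Mgam the smallest, 0.08 (-0.32 to 0.48). The subsets were recognised from the same arrays, so these values describe them.

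With the subsets as a block, 4 of the 9 rose over the 10 arrays, where 4.5% of all genes did: Khk (limma adjusted p = 0.00146), Fbp1 (0.0219), Sis (0.0232) and Treh (0.0253). Slc2a2 had an adjusted p of 0.0657, Lct of 0.0844, Slc2a5 of 0.210, Slc5a1 of 0.282 and Mgam of 0.779. The differences are those of the fit without the block. The subsets were recognised from these same arrays, so the smaller p-values describe this fit and are no independent test.

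**Figure D2:**
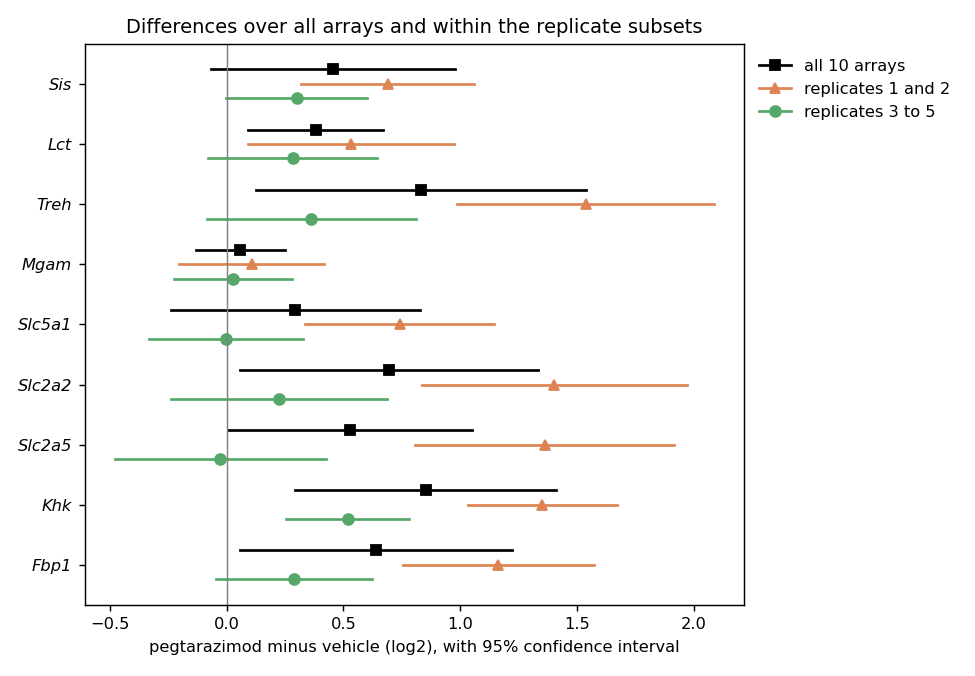
Difference between pegtarazimod and vehicle (horizontal axis, log2) for each of the 9 genes, over all 10 arrays (squares), within replicates 1 and 2 (triangles) and within replicates 3 to 5 (circles); lines are 95% confidence intervals from limma, unadjusted for the number of genes. The triangles lie to the right of the circles for all 9 genes, and Khk is the gene whose 3 intervals all lie above 0.

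Whether 1 gene responded more than another was tested on the within-array difference of each of the 36 pairs of genes, with exact two-sided permutation of the arrays, for which the smallest possible p is 0.00794. No pair passed after adjustment over the 36, while 5 had an unadjusted p below 0.05. With that smallest p, no pair could pass on its own, however far apart the groups. The result therefore does not show that the genes responded alike. Relative to Slc5a1, Khk was higher with pegtarazimod by 0.56 on the log2 scale and Fbp1 by 0.35, both without overlap between the groups (exact p = 0.00794, adjusted p = 0.143). Relative to Sis, Khk differed by 0.40, and relative to Slc5a1, Treh differed by 0.54 (exact p = 0.0159, adjusted p = 0.143 for both). Relative to Mgam, Khk differed by 0.79 (exact p = 0.0317, adjusted p = 0.229).

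The 9 genes were also set against each other across arrays of the same group. With group means removed, Pearson's r over the 10 arrays was above 0 for all 36 pairs, with a median of 0.62 and 26 pairs above 0.5. Over all pairs of genes 50.0% had an r above 0 and 10.2% an r above 0.5. With the group means alone removed, Mgam followed the others least, with an r of 0.41 with their mean. The r of a pair was highest for Treh with Slc5a1 and for Slc5a1 with Fbp1 (0.97 each). It was lowest for Mgam with Fbp1 and with Khk (0.15 each). The arrays share the division into replicates 1 and 2 and replicates 3 to 5, and with the means of these subsets removed as well the median fell to 0.45, with 34 pairs above 0 and 15 above 0.5, against 13.2% of all gene pairs above 0.5. Slc2a2 with Slc2a5 then had the highest value, 0.97, ahead of Sis with Mgam (0.95) and Lct with Khk (0.91). Slc2a5 with Fbp1 had the lowest, -0.13. Mgam then stood at 0.80 to 0.84 with Treh, Slc2a2 and Slc2a5 and at 0.57 with Slc5a1. With Fbp1, Khk and Lct, Mgam stood at 0.18 to 0.30. These values are descriptions over few arrays that share their normalisation.

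**Figure D3:**
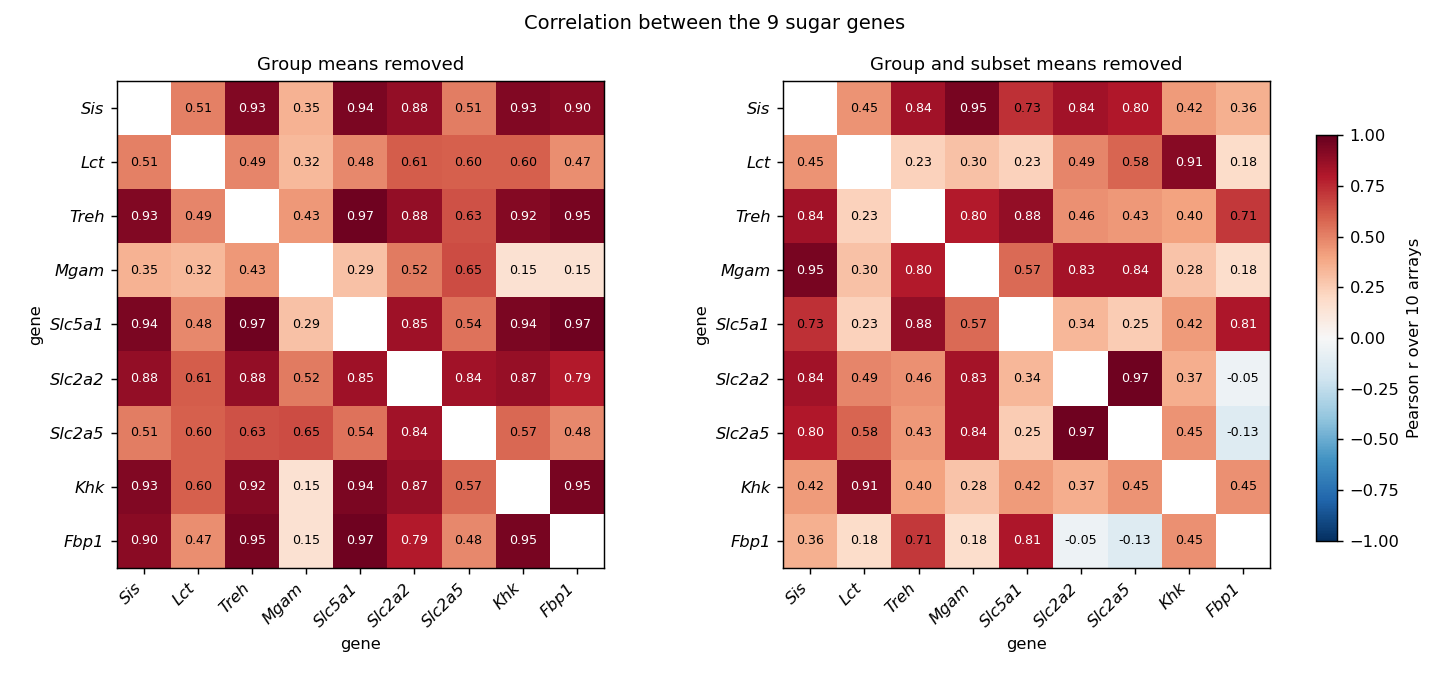
Pearson's r over 10 arrays (colour scale, -1 to 1) between the 9 genes on both axes, with the group means removed (left) and with the group and subset means removed (right). On the left 26 of 36 pairs lie above 0.5 and Mgam forms the pale row. On the right 15 pairs do, and Slc2a2 with Slc2a5 stands at 0.97. There Mgam runs from 0.18 with Fbp1 to 0.95 with Sis.

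The genes whose pattern was most like the mean of the 9 (each scaled to unit variance, group means removed) were sought among all genes by Pearson's r over the 10 arrays, and the closest 10 had r from 0.960 to 0.979. They were Aldh1a7, an aldehyde dehydrogenase gene, Trim31, Fabp12, Slc6a19, Anks4b, Eps8l2, Aqp11, Nfe2l2, Cyp2j8 and Gramd3. Slc6a19 encodes the neutral amino acid carrier of the brush border, Anks4b a component of the links between microvilli, and Nfe2l2 the antioxidant factor NRF2. That the 10 follow the order of the arrays in the 9 is fixed by this choice. Fabp12 and Cyp2j8 had means of 2.93 and 3.09 with vehicle, below the lower quartile of the arrays. Of the 10, Aqp11 and Trim31 rose with pegtarazimod, by 1.01 and 0.68 (limma adjusted p = 0.0212 and 0.0369).

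Genes of the same pathways showed a mixed picture. Among 10 measured genes of fructose breakdown and gluconeogenesis 2 rose and none fell, with a median difference of 0.41. Fbp2, the second fructose bisphosphatase gene, rose from 8.99 ± 0.18 to 9.64 ± 0.18 (SD, n = 5 per group; limma adjusted p = 0.00529), without overlap and in both subsets. Its difference of 0.65 was close to the 0.64 of Fbp1, whose arrays spread more. G6pc, the glucose phosphatase that releases free glucose, rose by 1.09 ± 0.26 (SE; limma adjusted p = 0.0269), and lost its call without vehicle 2, 3 or 4 or without pegtarazimod 2, at up to 0.0758 without vehicle 3, and with robust priors and an intensity trend. The glycerol phosphate dehydrogenase gene Gpd1 differed by 0.58 and the gluconeogenic gene Pck1 by 0.34 (limma adjusted p = 0.0983 and 0.115). Tkfc, the kinase for the glyceraldehyde made from fructose, named after its value was seen, differed by 0.51 (0.259).

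Of 15 other sugar carrier genes none passed, with a median difference of 0.05. The urate and hexose carrier gene Slc2a9 differed by 0.75 and the glucose phosphate carrier gene Slc37a4 by 0.61 (limma adjusted p = 0.0595 and 0.0626; unadjusted p = 0.00332 and 0.00359). Slc5a4b differed by -0.30, and Slc2a1, the GLUT1 gene of basal glucose uptake, by -0.22 (limma adjusted p = 0.219 and 0.322). Of 11 galactose and glycogen genes 1 rose, the phosphoglucomutase gene Pgm2, by 0.58 ± 0.08 (SE; limma adjusted p = 0.00176), with a list median of -0.00992. The galactose mutarotase gene Galm differed by 0.54, Galt by 0.16 and Pygb by -0.16 (limma adjusted p = 0.0833, 0.388 and 0.348).

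Among 19 glycolysis genes 1 rose and 1 fell, with a median of 0.08. The hexokinase gene Hk2 fell by 0.66 ± 0.16 (SE), from 8.52 to 7.87 (limma adjusted p = 0.0300), and Pfkfb4, which sets the level of the activator of phosphofructokinase, rose by 0.83 ± 0.21 (0.0382). Neither call held throughout when single arrays were left out: that of Hk2 was lost on leaving out vehicle 1, 3, 4 or 5 or pegtarazimod 1, 2 or 5, with an adjusted p of up to 0.0786, and that of Pfkfb4 on leaving out vehicle 3, 4 or 5 or pegtarazimod 1 or 2 (or with robust priors and an intensity trend), with up to 0.106. The related genes Hkdc1 and Pfkfb3 differed by 0.98 and -0.71 (limma adjusted p = 0.0592 and 0.141).

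Of 17 transcription factor genes known for brush border or carbohydrate-response genes 1 rose and 2 fell, with a median of 0.09. Mlx, the partner of the carbohydrate-response factors that bind E-boxes, rose by 0.51 ± 0.09 (SE; limma adjusted p = 0.00726), whereas Mlxipl, which encodes ChREBP and was named after its value was seen, differed by 0.15 (0.739). Foxa2 and Foxa1 fell by 0.72 ± 0.10 and 0.68 ± 0.17 (limma adjusted p = 0.00181 and 0.0321), and Foxa3 differed by -0.45 (0.0516). The call of Foxa1 was lost without vehicle 2, 3, 4 or 5 or without pegtarazimod 1 or 2 (adjusted p up to 0.0917). Cdx2 and Hnf4a, named after their values were seen, differed by 0.09 and 0.15 (limma adjusted p = 0.767 and 0.447).

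**Figure D4:**
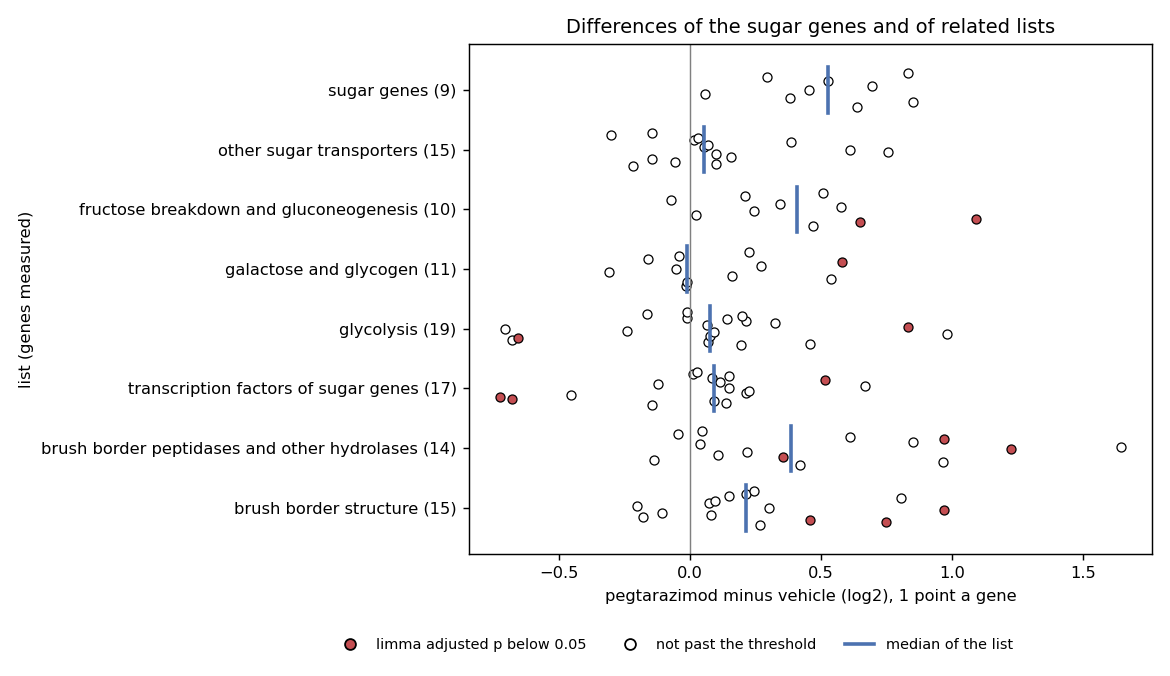
Difference between pegtarazimod and vehicle (horizontal axis, log2) of each measured gene in the 9 sugar genes and 7 related lists; filled points passed limma with Benjamini-Hochberg adjustment over all genes, and blue lines are list medians. None of the sugar genes is filled, and their median is 0.53; the 7 other medians drawn run from -0.00992 to 0.41, and lists not drawn had higher ones, such as the mid-villus markers (0.95, 3 of them among the 9) and the goblet markers (0.67).

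Other brush border genes were read beside the sugar genes. Of 14 peptidases and other hydrolases 3 rose: the aminopeptidase genes Enpep (1.22) and Anpep (0.35) and the endopeptidase gene Mme (0.97; limma adjusted p = 0.00898, 0.0292 and 0.0378). Anpep lost its call without vehicle 1, 2, 4 or 5 or pegtarazimod 1 or 2 (adjusted p up to 0.0794), and Mme without vehicle 2, 3 or 4 or pegtarazimod 1, 2 or 4 or with robust priors and an intensity trend (up to 0.108). Of 15 brush border structure genes 3 rose, the motor gene Myo1a (0.97) and the intermicrovillar cadherin genes Cdhr2 (0.75) and Cdhr5 (0.46; limma adjusted p = 0.00173, 0.00181 and 0.0285), that of Cdhr5 losing its call without vehicle 2 or 3 or pegtarazimod 1 or after quantile normalisation (up to 0.0825). The medians of these lists were 0.39 and 0.21. Whether the 9 sugar genes differ from these lists was not tested.

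Markers of other cell types of the epithelium moved with the treatment as well. Of 7 stem cell markers 6 fell and none rose, with a median of -1.0004 (-1.22 in replicates 1 and 2, -0.86 in replicates 3 to 5), and the mean level of the list was 8.99 to 9.18 on vehicle arrays and 7.54 to 8.25 on pegtarazimod arrays. Of 9 goblet markers 6 rose (mean level 7.13 to 7.38 against 7.89 to 8.11), of 9 Paneth markers 5 fell and 1 rose (8.26 to 9.14 against 7.30 to 8.41), and of 9 enteroendocrine markers 3 rose and 1 fell (7.60 to 8.25 against 8.11 to 8.48). Of these the incretin gene Gip (limma adjusted p = 0.0269) lost its call without vehicle 3, 4 or 5 or pegtarazimod 1 or 2 and with robust priors and an intensity trend (up to 0.0804). None of 7 tuft or 8 non-epithelial markers passed, and the mean level of the non-epithelial list was 4.46 to 4.55 with vehicle and 4.38 to 4.68 with pegtarazimod. Of the non-epithelial markers the collagen gene Col1a1 had the highest values (6.34 with vehicle, 6.48 with pegtarazimod), and the leukocyte gene Ptprc, named after its values were seen, lay at 4.08 and 4.09, little above the lower quartile of the arrays. In such mixed cultures fewer cells of a type and less RNA per cell cannot be told apart, and the part of these shifts in the values of the sugar genes was not tested.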

How the data were processed

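RNA of 10 organoid samples, 5 per group by the sample labels, was measured on 10 arrays. The deposited table holds log2 expression for each probe set, which the authors made with RMA in the package oligo (background correction, quantile normalisation, probe summary), per the submitters' processing notes. Versions, annotation and build: not given in the sources used here. Of 22203 probe sets, 19572 carried 1 gene symbol, 0 carried several and 2631 were unnamed and left out. All 19572 gene identifiers matched a GRCm38.p6 table used for names. This left 19505 genes; for 55 with more than 1 probe set the one with the highest mean was taken. No detection calls were used, and quantile normalisation hides a change common to most genes.

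Differences (pegtarazimod minus vehicle) were fitted over all genes with limma 3.58.1 in R 4.3.3 (lmFit, eBayes, no covariates) and adjusted by the Benjamini-Hochberg method, with 0.05 as the threshold; the test was checked on simulated arrays. The sugar genes and the 18 related lists were chosen with earlier results of these data known. Named were the 9 sugar genes, up to 4 genes of each list with the smallest p, and the 10 genes most like the 9; others are marked where they stand. P-values measure the spread between these samples. Alternatives were another normalisation, filters on dim genes, other variance models, blocks, other probe set rules and leaving out each array. Promoter windows came from RefSeq; planned protein alignments were not run. Figures used Python 3.11.15 and matplotlib 3.10.9.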

Additional observations from a re-analysis of the deposited data

Results flagged for a closer look

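None of the 9 sugar genes had an array far from the other 4 of its group. Among the 87 named genes, 4 of 174 groups had such an array (gap over range above 0.71), and chance gives about 1 in 20. Myo1a was 8.17 in pegtarazimod 1 against at most 7.65 in the other pegtarazimod arrays. Nlrp6, a lower-villus marker, was 8.76 in vehicle 1 against at most 8.33 in the others. The mucin gene Muc2 was 9.71 in pegtarazimod 2 against at least 10.33 in the others. Clca1, a goblet cell gene, was 5.81 in vehicle 4 against at most 5.41 in the others.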

How the results depend on the processing

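The number of the 9 sugar genes past the threshold was 0 in the fit reported and in 8 of 10 alternative fits over all 10 arrays, and it was 4 with the 2 subsets of replicates as a block and 5 with the replicate number as a block. The subset block called 4.5% of all genes higher and the replicate block 4.01%, against 2.5% in the fit reported. The subsets of the former block were recognised from these same arrays. Leaving out each array in turn gave 0 to 2 (2 without pegtarazimod 4). With the replicate block Khk (limma adjusted p = 0.00472), Sis (0.0321), Fbp1 (0.0351), Treh (0.0378) and Lct (0.0457) passed. Samples with the same number correlated in their deviations from the group means at 0.0993 (replicate 3) to 0.310, 4 of the 5 pairs were above 0.1 and 8 of the 10 samples correlated best with their own number. The labels give no pairing and replicate 3 was just under 0.1, so the numbers were not taken as pairs. The number of genes of the related lists past the threshold was 45, and 69 with either block. The median difference of the 9 stayed between 0.36 and 0.64. The sign of Mgam turned under quantile normalisation over the named genes (-0.0182), and no other of the 9 turned. No pair of the 9 passed the exact permutation test under any alternative run, with 5 of 36 below 0.05 unadjusted in the test reported. Within the subsets the smallest possible p is 0.0167, so that after adjustment over 36 a pass was hardly possible. In the test reported the smallest possible p is 0.00794, with which no pair could pass on its own either. Treh is absent from the fit without the dimmest 50% of genes. Dim genes near the lower quartile, such as Treh with vehicle, may have understated folds.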

Other observations

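Markers of enterocyte position on the villus were read beside the sugar carriers, which count as mid-villus genes. Of 8 measured mid-villus markers 4 rose and none fell, with a median of 0.95 (1.45 in replicates 1 and 2, 0.58 in replicates 3 to 5). The 4 were amino acid and peptide carrier genes: Slc7a8 rose by 1.72 ± 0.18 (SE), Slc7a7 by 1.33 ± 0.11, Slc15a1 by 1.27 ± 0.21 and Slc7a9 by 1.21 ± 0.15 (limma adjusted p = 2.29e-04, 3.57e-05, 0.00412 and 0.00101). The sugar carriers of the same list, Slc5a1, Slc2a2 and Slc2a5, differed by 0.29, 0.69 and 0.53 and did not pass. In replicates 1 and 2, a subset recognised from these same arrays, the 4 carrier genes differed by 1.49 to 1.61. There Slc5a1, Slc2a2 and Slc2a5 differed by 0.74, 1.40 and 1.36, all 3 past the threshold (limma adjusted p = 0.0322, 0.00640 and 0.00665). In replicates 3 to 5 the 4 carrier genes differed by 0.94 to 1.80 and the sugar carriers by -0.03 to 0.22, and whether they differ from each other was not tested. Of 5 lower-villus markers 2 rose, Gsta4 (0.53) and Reg3b (0.65; limma adjusted p = 0.00906 and 0.0290), Reg3b losing its call without vehicle 2, 4 or 5 or pegtarazimod 1, 3 or 5 (up to 0.0737). Of 9 villus tip markers 1 rose, Apob (0.66, limma adjusted p = 0.0460). Its call was lost without any 1 of the 5 vehicle arrays or without pegtarazimod 1 or 2. It was also lost after quantile normalisation, and with robust priors and an intensity trend (up to 0.120). Creb3l3, Apoa4 and Slc28a2 differed by 1.07, 0.85 and -0.61 (limma adjusted p = 0.0765, 0.0883 and 0.0964). The villus tip list had 4 differences above 0 and 5 below, with a median of -0.04, and the lower-villus list a median of 0.53.

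Genes known to be high before weaning and genes known to appear at weaning were compared because Lct belongs to the former and Sis and Treh to the latter. Of 11 measured suckling-type genes 1 rose, the urea cycle gene Otc (1.01, limma adjusted p = 0.00133), with a median of 0.11. Amn and Fcgrt, which take part in uptake of proteins before weaning, differed by 0.25 and 0.42 (limma adjusted p = 0.173 and 0.222). Of 6 adult-type genes, 4 of them sugar genes, 1 rose, the arginase gene Arg2, by 2.01 ± 0.31 (SE; limma adjusted p = 0.00272), and the median was 0.49. Arg2 rose in both subsets, by 2.74 in replicates 1 and 2 and 1.52 in replicates 3 to 5. Sis and Treh rose in replicates 1 and 2, and differed by 0.30 and 0.36 in replicates 3 to 5, where they did not pass. Their interactions with the subset did not pass either (limma adjusted p = 0.726 and 0.372).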
